A study of Homo sapiens with 8 samples.

Results

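The cornified envelope genes are a list of 34 genes whose products build, cross-link or process the tough protein shell that replaces the plasma membrane of dying surface keratinocytes. They were taken by symbol from the deposited expression tables, in which all 34 had a row and no symbol was repeated, out of 24252 rows. Values were read as FPKM, that is, fragments scaled by transcript length and by sequencing depth. No unit is named with the deposited values. A gene was tested where its mean over all libraries was at least 1 FPKM, which 23 of the 34 genes and 11740 of all genes passed. The other 11 genes are given by level.

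RNA was sequenced from HaCaT, a spontaneously immortalised keratinocyte line from human skin. The 4 OGD-R libraries came from HaCaT cells given the treatment OGD/R, in common usage oxygen and glucose deprivation followed by the return of both, and taken at a stage the series calls early. The 4 Control libraries came from HaCaT cells with no treatment in their labels. The sources used here do not give how long deprivation and return lasted. They also do not say whether the libraries of a group were grown apart, so the p-values speak only of the spread among these libraries, which may be technical.

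As background, keratinocytes that leave the basal layer first lay down the plakins envoplakin and periplakin and the protein involucrin under the membrane. Transglutaminases then cross-link these with loricrin, small proline-rich (SPRR) proteins and late cornified envelope (LCE) proteins, while filaggrin and its relatives bundle keratin and are broken down. Many of these genes sit side by side on chromosome 1 in the epidermal differentiation complex, taken here as the stretch from RPTN to LOR.

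The labelled cell type held: all 10 keratinocyte markers reached 1 FPKM in both groups, with KRT14, a basal keratin, between 4742 and 5526 FPKM in OGD-R and between 3556 and 4137 FPKM in Control. The keratinocyte sum was between 15519 and 16430 FPKM in OGD-R and between 12790 and 20950.3 FPKM in Control. Within the list KRT5 and KRT14 were higher in every OGD-R library than in every Control, and KRT6A, ITGB4 and LAMB3 were lower. KRT17, a keratin of stressed epidermis, was between 2084 and 2435 FPKM in OGD-R, against 2346, 2089, 9933 and 9796 FPKM in Controls 1 to 4. Markers of other cells were low. Of 7 fibroblast markers 1 reached 1 FPKM (COL1A1), of 6 melanocyte markers 1 (MITF), of 6 leukocyte markers 1 (CD68) and of 5 endothelial markers 0. Of 4 Merkel cell markers, 2 reached 1 FPKM in OGD-R (KRT20 and SYP) and 1 in Control (KRT20), with ATOH1 at 0 throughout; their sum was between 1.94 and 2.48 FPKM in OGD-R and between 0.496 and 4.38 FPKM in Control. The summed level of the fibroblast list was between 3.84 and 5.08 FPKM in OGD-R and between 0.904 and 8.72 FPKM in Control, with COL1A2 at 0 throughout. Summed leukocyte markers were between 3.23 and 4.00 FPKM in OGD-R and between 12.5 and 16.8 FPKM in Control, with PTPRC, the pan-leukocyte marker, at most at 0.0122 FPKM in OGD-R and 0.0245 FPKM in Control. The melanocyte sum was between 2.29 and 2.62 FPKM in OGD-R and between 1.21 and 1.60 FPKM in Control, and the endothelial sum between 0.296 and 0.463 FPKM in OGD-R and between 0.0475 and 0.199 FPKM in Control. KRT20 was at 0 in Controls 1 and 2 and at 3.49 and 3.94 FPKM in Controls 3 and 4, so it split as many cornified envelope genes did. The mitochondrial genome supplied from 26.6% to 29.1% of all FPKM in OGD-R and from 17.5% to 21.9% in Control, and a larger share there lowers every other FPKM value. The part of these shifts in the results was not tested, except that the scaling without mitochondrial genes is given for the calls. Fewer cells of a kind and less RNA per cell cannot be told apart in these bulk libraries.

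The Control libraries fell into pairs. Log2 values over all genes tested correlated at 0.992 between Controls 1 and 2 and at 0.991 between Controls 3 and 4, but between 0.874 and 0.881 across these pairs, while the OGD-R libraries correlated between 0.992 and 0.993. OGD-R correlated with Controls 1 and 2 between 0.940 and 0.947, and with Controls 3 and 4 between 0.879 and 0.887. Genes are the points of these correlations and do not stand for replicates. The cornified envelope genes were among those most split: the median SD of log2(FPKM + 1) was 0.15 in OGD-R and 1.47 in Control for the 23 genes tested, against 0.09 and 0.29 for all genes. Controls 3 and 4 exceeded Controls 1 and 2 by at least 2 on the log2 scale in 14 of the 23, against 1.99% of all genes tested. In 0 of the 23 did Controls 1 and 2 exceed by as much (1.86% of all genes). That Controls differ strongly in these genes was known beforehand, so these counts describe the split and do not test it. LCE3D, LCE3E and SPRR3, which are among the 14, averaged under 1 FPKM over the other libraries. They passed the filter only through Controls 3 and 4, which raises this and later counts by Control pair. Every result is therefore given with all 4 Controls and, where it matters, with either pair alone. These pairs were seen in the data and are not groups of the study.

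The sequences that precede 6 of the genes are shown because the genes fall into the patterns described next: IVL, SPRR1A and SPRR1B lay between the Control pairs in OGD-R, SCEL lay above all Controls, and LCE3D and LCE3E were low in OGD-R and high in Controls 3 and 4. Each run is the 250 bases before the RefSeq gene start, 5' to 3' on the gene's strand, from GRCh38.p14. In the first 4, capitals mark TGANTCA and TATAAA, the TATA box. TGANTCA is a loose form of the letters that AP-1 transcription factors bind, with any base in the middle. In LCE3D and LCE3E, capitals mark the longest run that both windows share, 36 bases.
IVL, chr1:152908296-152908545, plus strand: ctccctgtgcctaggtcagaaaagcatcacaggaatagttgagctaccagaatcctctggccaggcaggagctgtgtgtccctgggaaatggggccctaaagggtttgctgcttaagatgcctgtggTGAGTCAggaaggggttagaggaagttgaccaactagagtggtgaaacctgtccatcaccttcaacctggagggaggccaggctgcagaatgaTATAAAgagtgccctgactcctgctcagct
SPRR1A, chr1:152983831-152984080, plus strand: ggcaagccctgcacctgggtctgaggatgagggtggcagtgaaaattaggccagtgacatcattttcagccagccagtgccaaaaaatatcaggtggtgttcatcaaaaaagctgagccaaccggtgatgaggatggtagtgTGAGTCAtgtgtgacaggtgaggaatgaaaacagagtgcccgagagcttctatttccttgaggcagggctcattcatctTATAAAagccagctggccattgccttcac
SPRR1B, chr1:153030953-153031202, plus strand: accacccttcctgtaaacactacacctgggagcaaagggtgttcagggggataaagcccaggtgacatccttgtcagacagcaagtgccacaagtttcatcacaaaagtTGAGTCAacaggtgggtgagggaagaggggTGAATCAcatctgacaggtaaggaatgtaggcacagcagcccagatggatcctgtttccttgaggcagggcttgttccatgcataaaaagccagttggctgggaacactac
SCEL, chr13:77535456-77535705, plus strand: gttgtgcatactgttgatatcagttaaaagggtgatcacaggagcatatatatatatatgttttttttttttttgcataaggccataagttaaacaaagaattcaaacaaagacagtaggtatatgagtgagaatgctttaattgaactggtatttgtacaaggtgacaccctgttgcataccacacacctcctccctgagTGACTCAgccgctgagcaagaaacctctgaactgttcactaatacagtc
LCE3D, chr1:152580517-152580766, minus strand: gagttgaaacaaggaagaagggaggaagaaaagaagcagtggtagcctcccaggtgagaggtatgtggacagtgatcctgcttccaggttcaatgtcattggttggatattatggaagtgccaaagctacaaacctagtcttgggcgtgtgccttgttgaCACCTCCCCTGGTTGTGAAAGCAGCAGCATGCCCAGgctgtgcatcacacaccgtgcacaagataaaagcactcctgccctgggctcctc
LCE3E, chr1:152566781-152567030, minus strand: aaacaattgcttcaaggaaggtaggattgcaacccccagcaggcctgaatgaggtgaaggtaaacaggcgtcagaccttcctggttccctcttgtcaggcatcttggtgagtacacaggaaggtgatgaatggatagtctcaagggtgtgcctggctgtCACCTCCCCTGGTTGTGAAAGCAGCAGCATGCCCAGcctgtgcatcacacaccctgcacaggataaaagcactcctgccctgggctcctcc

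Windows were found for 24 of the 34 genes, among them not ASPRV1, whose nearest window lay more than 10000 bases from its start in the GENCODE 29 annotation. TGANTCA, on either strand, was present in 13 of the 24 (54.2%), against 6.57% of all 35116 windows of the same length. These were IVL, FLG, RPTN, SPRR1A, SPRR1B, SPRR2A and SPRR3 of the epidermal differentiation complex, and SCEL, SBSN, KRTDAP, DMKN, ECM1 and CASP14. FLG held only TGAATCA and RPTN only TGATTCA, while each of the others held TGAGTCA or TGACTCA. The share of windows with only these stricter letters was not counted. The letters were found at 123 bases before the start in IVL, 108 in SPRR1A, 141 and 111 in SPRR1B, and 49 in SCEL, and not in the windows of LCE3D and LCE3E. TATAAA was present in 10 of the 24 (41.7%), against 10.7% of all windows. A match stood between 29 and 31 bases before the start in all 10, and TGM3 had further ones farther away. Of the other motifs searched on both strands, AACNGGTT, which Grainyhead-like factors bind, was present in 2 (RPTN and TGM5; 1.49% of all windows) and TTGCGNAA, a C/EBP type of site, in 0 (0.752% of all windows). In genome coordinates the RefSeq start minus the GENCODE 29 start was -1150 bases for SPRR1A, -5094 bases for KRTDAP and 952 bases for CALML3, so these windows precede a start other than GENCODE's. These matches describe letters only.

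**Figure D1:**
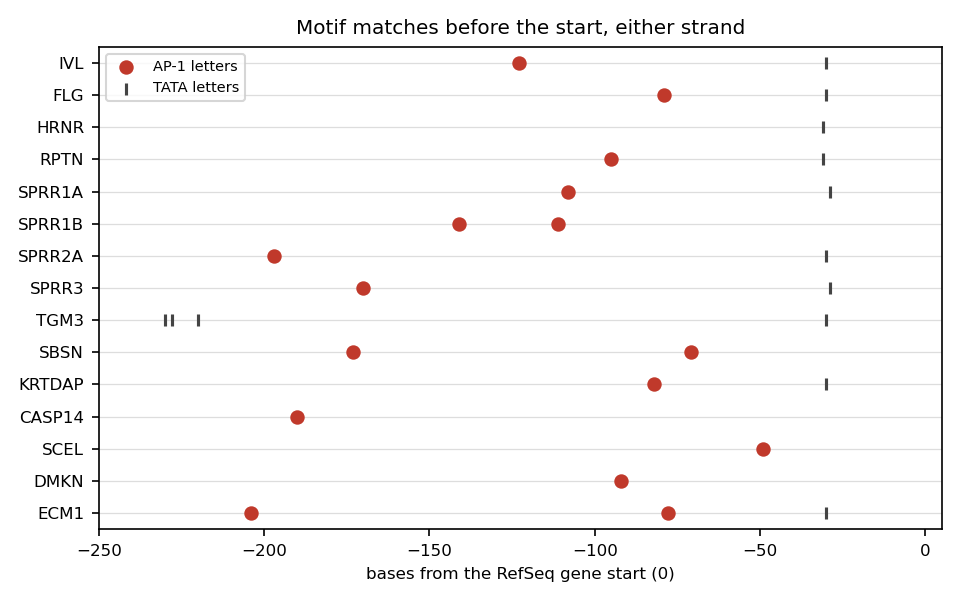
Positions of AP-1 letters (TGANTCA, circles) and TATA letters (TATAAA, bars) on either strand in the 250 bases before the RefSeq start, for the genes with either motif; the x axis is bases from the start at 0. AP-1 letters lie at several distances, between 204 bases before the start in ECM1 and 49 in SCEL.

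Summed over the 34 genes, OGD-R libraries held 976.5, 1129.5, 1137 and 1000.03 FPKM, against 354.5, 312.5, 1827 and 2150.3 FPKM in Controls 1 to 4. OGD-R thus lay above Controls 1 and 2 and below Controls 3 and 4 in every library. The cross-linked precursors, 13 genes, made up between 55.4% and 57.8% of the sum in OGD-R, against 31.8%, 29.5%, 80.9% and 83.3% in Controls 1 to 4. IVL, SPRR1A and SPRR1B together held between 53.6% and 56.1% of the summed FPKM of the 34 genes in OGD-R, against 30.6%, 27.4%, 71.3% and 74.9% in Controls 1 to 4. The plakin and scaffold genes EVPL, PPL and SCEL held between 152 and 160.3 FPKM in OGD-R, against 45.1, 42.7, 95.6 and 93.2 FPKM in Controls 1 to 4, so they lay above all Controls.

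**Figure D2:**
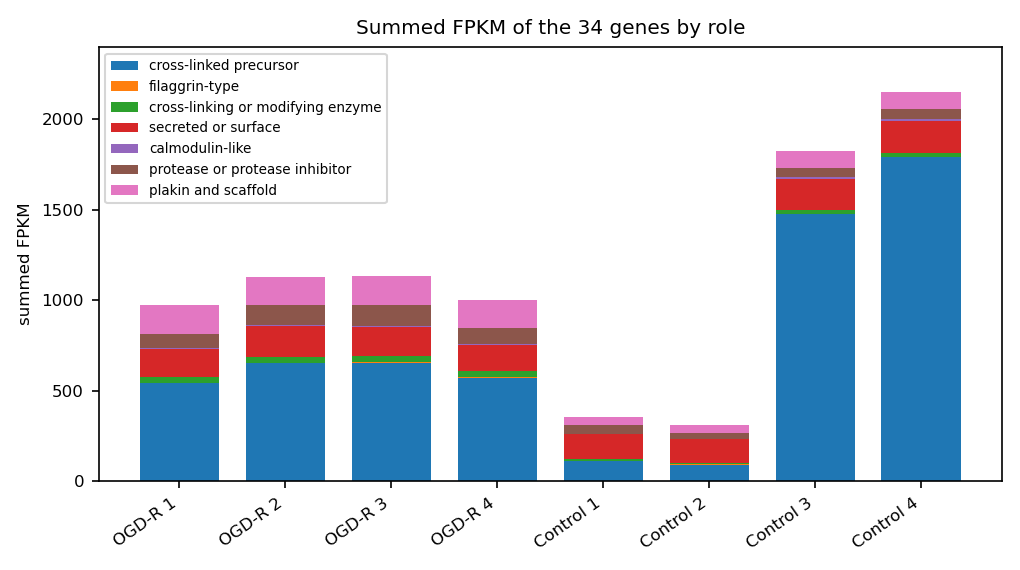
Summed FPKM (y axis) of the 34 genes in each library (x axis), stacked by the role of the genes. The cross-linked precursors (lowest block) make up most of the sum in Controls 3 and 4, and the total in OGD-R lies between 976.5 and 1137 FPKM.

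With all 4 Controls, 5 of the 23 genes tested rose in OGD-R (EVPL, CSTA, PPL, LYPD3 and TGM1), 1 fell (DMKN) and 17 did not pass the test (limma on log2(FPKM + 1), Benjamini-Hochberg adjusted p of at most 0.05 over all 11740 genes). Of all genes tested, 10.2% were called higher and 9.69% lower. The median log2 fold change, OGD-R over Control, was 0.48 over the 23 genes and 0.02 over all genes, with 15 of the 23 above 0 and 8 below. The median of the 23 depended on the Controls. It was 0.01 without Control 1 or without Control 2, with 12 above 0 and 11 below. Without Controls 1 and 2 it was -0.42, with 8 above 0 and 15 below, and without Controls 3 and 4 it was 1.23, with 19 above 0 and 4 below. All 6 called genes lie outside the epidermal differentiation complex, where 12 of the tested genes lie. None of the 11 tested genes inside the complex was called, and 7 of these lay between the Control pairs with Controls 3 and 4 highest.

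**Figure D3:**
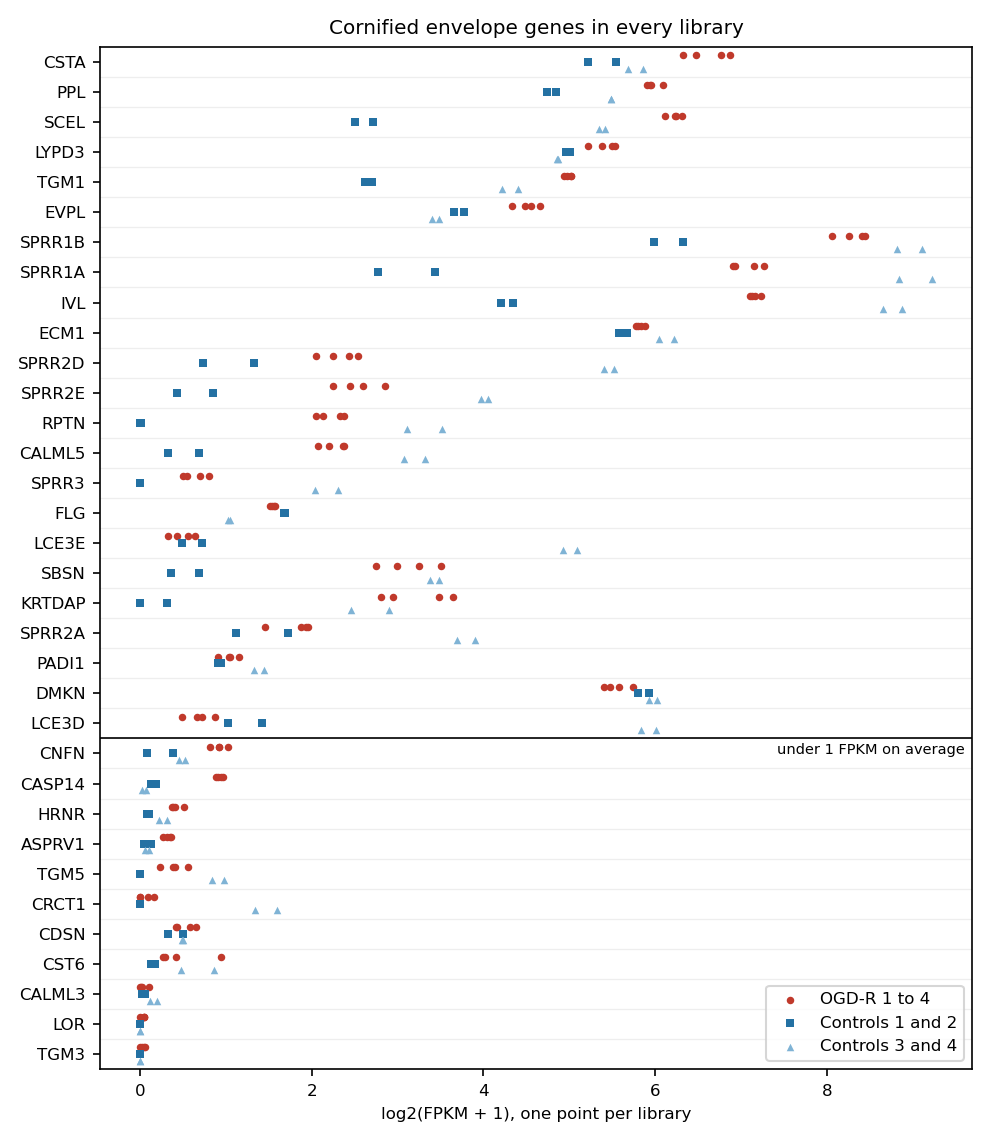
Level of each of the 34 genes in every library on the log2(FPKM + 1) scale (x axis), with OGD-R as circles, Controls 1 and 2 as squares and Controls 3 and 4 as triangles; genes under the horizontal line averaged under 1 FPKM. The OGD-R points lie above all Controls for CSTA, PPL, SCEL, LYPD3, TGM1 and EVPL, and between the Control pairs for IVL and most SPRR genes.

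Of the 3 plakin and scaffold genes, EVPL and PPL rose in OGD-R and SCEL did not pass the test. EVPL, which encodes envoplakin, the plakin that nucleates the envelope at the membrane (ENSG00000167880, chromosome 17, 76004502 to 76027452, minus strand, GRCh38), was at 24.3, 22.5, 21.3 and 19.1 FPKM in OGD-R libraries 1 to 4, against 12.7, 11.6, 10.2 and 9.601 FPKM in Controls 1 to 4. All OGD-R libraries lay above all Controls, which were close together for this gene. Its log2 fold change was 0.93 ± 0.12 (SE; limma adjusted p = 0.00135), and it was 0.79 against Controls 1 and 2 alone and 1.06 against Controls 3 and 4 alone. The gene overlaps CDK3 on the opposite strand, and 0.795% of its 75-base windows are shared with EVPLL.

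PPL encodes periplakin, the partner of envoplakin (ENSG00000118898, chromosome 16, 4882507 to 4960741, minus strand). Its values were 67.1, 60.1, 60.9 and 59.0 FPKM in OGD-R libraries 1 to 4, against 27.7, 25.6, 43.6 and 43.8 FPKM in Controls 1 to 4. OGD-R lay above every Control, and the Controls differed by pair. The log2 fold change of PPL was 0.83 ± 0.19 (SE; limma adjusted p = 0.0181). It was 1.18 against Controls 1 and 2 alone and 0.49 against Controls 3 and 4 alone. PPL was no longer called without OGD-R 1, 2 or 3. PPL overlaps SEC14L5 on the opposite strand.

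SCEL encodes sciellin, a precursor laid down at the inner face of the envelope (ENSG00000136155, chromosome 13, 77535674 to 77645263, plus strand). It was at 68.3, 74.8, 78.0 and 74.2 FPKM in OGD-R libraries 1 to 4, against 4.67, 5.56, 41.8 and 39.8 FPKM in Controls 1 to 4. The groups did not overlap, and the OGD-R mean was higher by 14.4 times against the mean of Controls 1 and 2 and by 1.81 times against the mean of Controls 3 and 4. With all Controls SCEL did not pass the test (log2 fold change 2.23 ± 0.69 SE, limma adjusted p = 0.0561). It passed without Control 3 or Control 4. All OGD-R libraries lay above all Controls for SCEL and 5 other tested genes, an order found in 15.2% of all genes tested.

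Among the enzymes, TGM1, which encodes the membrane-bound transglutaminase that is the main cross-linker of the envelope (ENSG00000092295, chromosome 14, 24249114 to 24264432, minus strand), was at 31.3, 30.3, 29.7 and 31.4 FPKM in OGD-R libraries 1 to 4. Controls 1 to 4 were at 5.50, 5.14, 20.2 and 17.6 FPKM. The OGD-R values were nearly equal and all above the Controls, with the gap to Controls 3 and 4 the smaller one. The log2 fold change of TGM1 was 1.50 ± 0.42 (SE; limma adjusted p = 0.0381), and 2.32 and 0.67 against Controls 1 and 2 and against Controls 3 and 4 alone. TGM1 was no longer called without Control 1, without Control 2 or without any 1 of the OGD-R libraries.

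The other transglutaminases were scarcely detected. TGM5, a transglutaminase of the upper epidermis, was at 0.326, 0.311, 0.475 and 0.175 FPKM in OGD-R libraries 1 to 4, against 0, 0, 0.980 and 0.793 FPKM in Controls 1 to 4, so OGD-R again lay between the Control pairs. TGM3, which acts late in cornification and in hair, was listed at 0 in every Control and at most at 0.0448 FPKM in OGD-R. For orientation, the commonest low value of single-exon genes was sought within a preset range. Scaled to the transcript length of TGM3 it was between 0.0152 and 0.0225 FPKM, so such values rest on very few fragments. PADI1, a peptidylarginine deiminase that citrullinates filaggrin and keratin, was at 1.07, 1.06, 1.23 and 0.881 FPKM in OGD-R libraries 1 to 4, against 0.931, 0.881, 1.51 and 1.72 FPKM in Controls 1 to 4. These ranges overlapped (log2 fold change -0.12 ± 0.15 SE, limma adjusted p = 0.603).

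CSTA and LYPD3 were the other called increases. CSTA encodes cystatin A, an inhibitor of cysteine proteases that is cross-linked into the envelope (ENSG00000121552, chromosome 3, 122325244 to 122341972, plus strand). It was at 79.1, 107, 116 and 87.5 FPKM in OGD-R libraries 1 to 4, against 45.5, 36.1, 50.5 and 56.7 FPKM in Controls 1 to 4. All OGD-R values exceeded all Controls (log2 fold change 1.03 ± 0.17 SE, limma adjusted p = 0.00525). LYPD3, which encodes the surface protein C4.4A of suprabasal keratinocytes (ENSG00000124466, chromosome 19, 43460787 to 43465660, minus strand), was at 45.2, 44.2, 40.6 and 36.2 FPKM in OGD-R libraries 1 to 4. Its Control values were closely grouped at 31.2, 30.1, 28.2 and 27.9 FPKM. The rise was small (log2 fold change 0.48 ± 0.10 SE, limma adjusted p = 0.0111). EVPL, CSTA and LYPD3 were called with any single library left out.

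The only called decrease was DMKN, which encodes dermokine, a protein secreted by differentiating keratinocytes (ENSG00000161249, chromosome 19, 35497220 to 35513658, minus strand). Its values were 43.3, 52.6, 46.7 and 41.3 FPKM in OGD-R libraries 1 to 4, against 59.8, 54.8, 60.02 and 63.6 FPKM in Controls 1 to 4. The nearest libraries, OGD-R 2 and Control 2, were close. DMKN had a log2 fold change of -0.37 with an SE of 0.0999 (limma adjusted p = 0.0345). It was not called under median scaling, under scaling without mitochondrial genes, or without OGD-R 1, 3 or 4 or Control 1, 3 or 4.

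DMKN lies between KRTDAP and SBSN on chromosome 19, and its neighbours followed another course. KRTDAP, which encodes a secreted peptide of differentiating keratinocytes, was at 6.002, 11.5, 10.2 and 6.71 FPKM in OGD-R libraries 1 to 4, against 0.244, 0, 6.47 and 4.52 FPKM in Controls 1 to 4. SBSN, which encodes suprabasin, a suprabasal envelope precursor, was at 6.96, 10.4, 8.55 and 5.72 FPKM in OGD-R libraries 1 to 4, against 0.607, 0.290, 9.39 and 10.2 FPKM in Controls 1 to 4. Both overlapped Controls 3 and 4 and lay far above Controls 1 and 2. Neither passed the test with all Controls (limma adjusted p = 0.0917 for KRTDAP and 0.308 for SBSN). Against Controls 1 and 2 alone their log2 fold changes were 3.06 and 2.60, and against Controls 3 and 4 alone 0.54 and -0.30. KRTDAP was called without Control 3.

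ECM1, which encodes a secreted extracellular matrix protein that in skin also marks differentiating keratinocytes, was at 53.9, 54.6, 58.02 and 56.0 FPKM in OGD-R libraries 1 to 4, against 49.9, 46.5, 64.9 and 73.3 FPKM in Controls 1 to 4. OGD-R thus lay between the pairs, with a log2 fold change near 0 (-0.05 ± 0.15 SE, limma adjusted p = 0.842). CDSN, which encodes corneodesmosin, the adhesive protein of corneodesmosomes, stayed between 0.342 and 0.571 FPKM in OGD-R and between 0.260 and 0.419 FPKM in Control. Its groups overlapped, and it overlaps PSORS1C1 on the opposite strand.

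The cross-linked precursors showed the Control split most plainly. IVL encodes involucrin, an early precursor and a common marker of keratinocyte differentiation (ENSG00000163207, chromosome 1, 152908545 to 152911886, plus strand). It was at 139, 142, 149 and 136 FPKM in OGD-R libraries 1 to 4, against 19.3, 17.4, 399.6 and 466 FPKM in Controls 1 to 4. No OGD-R library overlapped either pair. The fitted log2 fold change of IVL was 0.64 ± 1.11 (SE; limma adjusted p = 0.719), an average of 2.88 against Controls 1 and 2 and -1.60 against Controls 3 and 4. On the log2(FPKM + 1) scale OGD-R stood at 64.3% of the way from Controls 1 and 2 to Controls 3 and 4. Such percentages are given on this scale throughout. For genes near or under 1 FPKM in Controls 1 and 2 they depend on the added 1, and they were not computed with another pseudocount.

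SPRR1A and SPRR1B encode small proline-rich proteins that serve as cross-bridges. SPRR1A (ENSG00000169474, chromosome 1, 152985231 to 152985500, plus strand) was at 121, 153, 141 and 119 FPKM in OGD-R libraries 1 to 4, against 9.84, 5.83, 456 and 597 FPKM in Controls 1 to 4. SPRR1B (ENSG00000169469, chromosome 1, 153031202 to 153032900, plus strand) was at 264, 338, 347 and 304 FPKM in OGD-R libraries 1 to 4, against 79.3, 62.2, 448 and 549 FPKM in Controls 1 to 4. Both lay between the pairs, at 66.8% and 76.1% of the way to Controls 3 and 4. SPRR1B was thus the more abundant in OGD-R and in Controls 1 and 2, while the pair was near parity in Controls 3 and 4. The GENCODE 29 model of SPRR1A is a single exon of 270 bases, and the length behind its FPKM is not given. The limma adjusted p with all Controls was 0.667 for SPRR1A and 0.502 for SPRR1B.

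The remaining SPRR genes were lower and more unequal in their place between the pairs. SPRR2D (ENSG00000163216, chromosome 1, 153039725 to 153041931, minus strand) was at 3.15, 4.41, 4.79 and 3.76 FPKM in OGD-R libraries 1 to 4, against 0.662, 1.51, 41.3 and 45.0 FPKM in Controls 1 to 4. SPRR2E was at 6.26, 5.04, 4.44 and 3.74 FPKM in OGD-R libraries 1 to 4, against 0.355, 0.805, 15.6 and 14.7 FPKM in Controls 1 to 4. SPRR2A was at 2.68, 2.89, 2.83 and 1.74 FPKM in OGD-R libraries 1 to 4, against 1.17, 2.30, 11.9 and 14.0 FPKM in Controls 1 to 4, so that OGD-R overlapped Controls 1 and 2. In OGD-R they stood at 29.04%, 56.1% and 16.3% of the way to Controls 3 and 4 on the log2(FPKM + 1) scale. SPRR2E was nearest to IVL on that scale, where low Control values make the percentages depend on the added 1. The SPRR2 genes are near copies: 23.9% of the 75-base windows of SPRR2A, 12.0% of SPRR2D and 16.02% of SPRR2E occur in another gene. Values of single SPRR2 genes are uncertain for that reason.

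SPRR3, an SPRR gene typical of mucosal epithelium, was at 0.626, 0.460, 0.754 and 0.415 FPKM in OGD-R libraries 1 to 4, against 0, 0, 3.12 and 3.95 FPKM in Controls 1 to 4. RPTN, which encodes repetin, a precursor of the S100 fused type, was at 3.39, 4.01, 4.21 and 3.16 FPKM in OGD-R libraries 1 to 4, against 0, 0.0101, 7.64 and 10.4 FPKM in Controls 1 to 4. Both were at or near 0 in Controls 1 and 2 and detected in every OGD-R library. On the log2(FPKM + 1) scale RPTN stood at 67.0% and SPRR3 at 29.4% of the way to Controls 3 and 4. With Controls 1 and 2 at or near 0, these percentages depend on the added 1 and do not rank the genes firmly. RPTN overlaps the pseudogene PUDPP2 on its own strand.

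In all, 9 of the 23 tested genes lay between the pairs with Controls 3 and 4 highest (IVL, RPTN, SPRR1A, SPRR1B, SPRR2D, SPRR2E, SPRR3, CALML5 and ECM1), an order found in 6.79% of all genes tested. CALML5, which encodes a calmodulin-like protein of the upper epidermis, was at 4.19, 3.20, 3.59 and 4.15 FPKM in OGD-R libraries 1 to 4, against 0.252, 0.609, 8.96 and 7.44 FPKM in Controls 1 to 4. That is 64.9% of the way to Controls 3 and 4 on the log2(FPKM + 1) scale, close to IVL there. With Controls 1 and 2 under 1 FPKM, it too depends on the added 1. Its relative CALML3 stayed at or under 0.0758 FPKM in OGD-R and 0.150 FPKM in Control. The fit with all Controls called 0 of these 9 genes, whose limma adjusted p lay between 0.502 (SPRR1B) and 0.886 (SPRR2E). Against Controls 1 and 2 alone all 9 were called higher, and against Controls 3 and 4 alone all 9 were called lower, directions that the order itself fixes. Another 5 tested genes overlapped one of the pairs or both (SPRR2A, SBSN, KRTDAP, LCE3E and PADI1), as 49.6% of all genes did.

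Over the 23 tested genes, 17 were called higher and 2 lower without Controls 3 and 4, where 22.8% of all genes were called higher and 32.4% lower. Without Controls 1 and 2, 7 were called higher and 14 lower, where 39.2% of all genes were called higher and 28.4% lower. The spread behind these calls is that of a pair and of OGD-R. TGM1, EVPL, PPL, CSTA, SCEL and LYPD3 were called higher against either pair, and LCE3D and DMKN were called lower against either pair. For these genes too the order of the libraries fixes the directions, and both fits share the same OGD-R libraries.

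**Figure D4:**
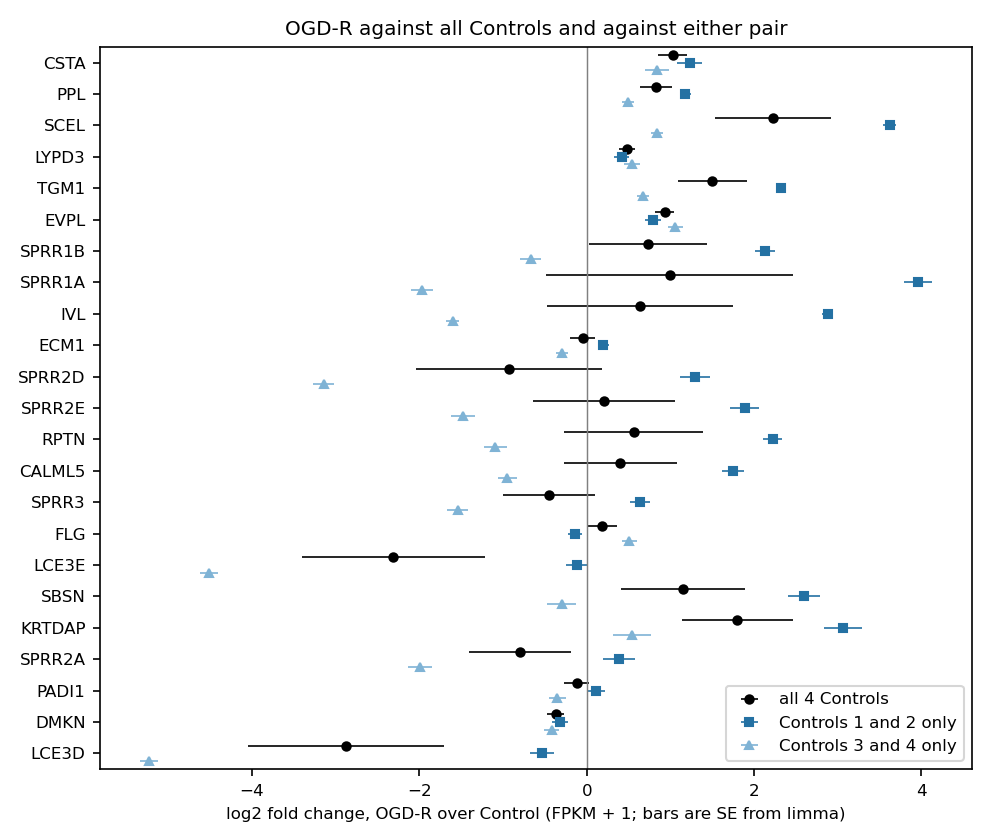
Log2 fold change of each tested gene, OGD-R over Control (x axis, on the FPKM + 1 scale, bars are the SE from limma), with all 4 Controls (circles), Controls 1 and 2 only (squares) and Controls 3 and 4 only (triangles). For IVL the values are 0.64, 2.88 and -1.60, on both sides of 0, whereas for EVPL they are 0.93, 0.79 and 1.06.

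The late cornified envelope genes LCE3D and LCE3E did not take the place of IVL between the pairs. LCE3 genes encode envelope proteins that are induced in injured and inflamed epidermis. LCE3D (ENSG00000163202, chromosome 1, 152579381 to 152580504, minus strand) was at 0.410, 0.828, 0.589 and 0.653 FPKM in OGD-R libraries 1 to 4, against 1.04, 1.67, 63.1 and 56.1 FPKM in Controls 1 to 4. LCE3E (ENSG00000185966, chromosome 1, 152565654 to 152566772, minus strand) was at 0.354, 0.255, 0.475 and 0.565 FPKM in OGD-R libraries 1 to 4, against 0.650, 0.409, 29.3 and 33.1 FPKM in Controls 1 to 4. LCE3D in OGD-R lay below every Control and LCE3E overlapped Controls 1 and 2, at -11.3% and -2.62% of the way from Controls 1 and 2 to Controls 3 and 4.

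With all Controls the log2 fold change was -2.88 for LCE3D (SE 1.17, limma adjusted p = 0.122) and -2.31 for LCE3E (SE 1.09, limma adjusted p = 0.176), so neither was called. Against Controls 3 and 4 alone these values were -5.23 and -4.51. Against Controls 1 and 2 alone they were -0.53 (limma adjusted p = 0.0117) and -0.12 (limma adjusted p = 0.472). LCE3D was called lower without Control 1. Complete separation below all Controls, which LCE3D and DMKN showed, was found in 14.8% of all genes tested. Of the 75-base windows of LCE3D 9.83% are shared with LCE3E, which leaves most of each transcript distinct.

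A list of 60 further cornification genes holds 16 other LCE genes. Of these, 7 were higher in both Controls 3 and 4 than in every other library, an order found in 17.4% of the 21214 genes above 0 in any library. Another 7 were listed at 0 in all libraries, and the remaining LCE2B and LCE5A were above 0 in a single OGD-R library each, at 0.0747 FPKM in OGD-R 3 and 0.150 FPKM in OGD-R 1, and at 0 in every Control. These were chosen after their values were seen. LCE1F, chosen after its values were seen, was at 0, 0, 0.157 and 0 FPKM in OGD-R libraries 1 to 4, against 0, 0, 23.2 and 18.5 FPKM in Controls 1 to 4. CRCT1, which encodes a cysteine-rich protein and lies in the same stretch of the complex, was at 0, 0, 0.0669 and 0.124 FPKM in OGD-R libraries 1 to 4, against 0, 0, 2.02 and 1.54 FPKM in Controls 1 to 4. Both were near 0 in OGD-R, as in Controls 1 and 2.

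**Figure D5:**
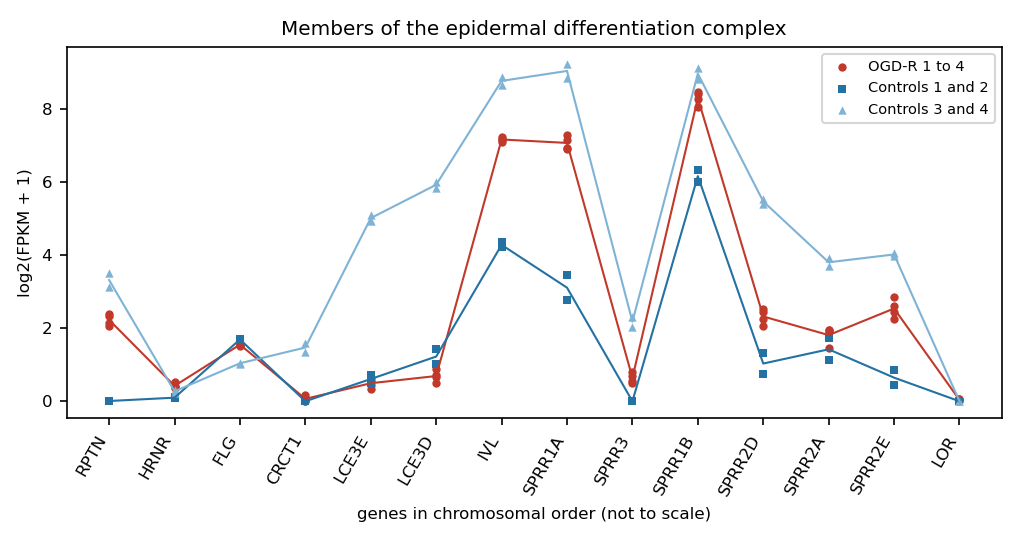
Log2(FPKM + 1) (y axis) of the 14 genes that lie in the epidermal differentiation complex, in chromosomal order (x axis, not to scale), with a point for each library and lines through the means. OGD-R (circles) follows Controls 1 and 2 (squares) at CRCT1, LCE3E and LCE3D and lies between the pairs from IVL to SPRR1B.

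Of the genes under 1 FPKM, 4 of 11 were higher in every OGD-R library than in every Control, an order found in 9.15% of all genes that averaged under 1 FPKM and were above 0. CASP14, a caspase that processes filaggrin in the cornified layer, was at 0.846, 0.877, 0.924 and 0.951 FPKM in OGD-R libraries 1 to 4, against 0.0977, 0.139, 0.0542 and 0.0183 FPKM in Controls 1 to 4. ASPRV1, which encodes a retroviral-like aspartic protease that cuts profilaggrin, was at 0.207, 0.243, 0.273 and 0.287 FPKM in OGD-R libraries 1 to 4, against 0.0922, 0.0375, 0.0777 and 0.0409 FPKM in Controls 1 to 4. CNFN, which encodes cornifelin, was at 0.768, 0.890, 0.902 and 1.04 FPKM in OGD-R libraries 1 to 4, against 0.303, 0.0564, 0.442 and 0.374 FPKM in Controls 1 to 4. The Control pairs overlapped for ASPRV1 but not for CASP14 and CNFN. The mean of Controls 3 and 4 was 0.307 times that of Controls 1 and 2 for CASP14 and 2.27 times for CNFN. For IVL it was 23.5 times.

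HRNR, which encodes hornerin, a filaggrin relative, was at 0.430, 0.326, 0.305 and 0.296 FPKM in OGD-R libraries 1 to 4, against 0.0608, 0.0801, 0.244 and 0.172 FPKM in Controls 1 to 4. Tested with a lower filter and a pseudocount of 0.1 each, chosen after seeing the data, CASP14 (log2 fold change 2.54 ± 0.26 SE, limma adjusted p = 0.000685), ASPRV1 (1.13 ± 0.25 SE, limma adjusted p = 0.0161) and CNFN (1.48 ± 0.38 SE, limma adjusted p = 0.0312) were called higher. HRNR was not (0.94 ± 0.30 SE, limma adjusted p = 0.0652). In that fit 10.3% of 16212 genes were called higher and 7.96% lower. With the lower filter alone, 10.6% of genes were called higher and 7.59% lower, and the same 3 were called. With no filter, HRNR was called too (limma adjusted p = 0.0397) and TGM1 was not (limma adjusted p = 0.0601), with 7.86% of 21214 genes called higher and 5.37% lower. ASPRV1 overlaps PCBP1-AS1 on its own strand, and HRNR and FLG both overlap FLG-AS1 on the opposite strand, so their low values are uncertain.

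FLG, which encodes profilaggrin, was the one tested gene between the pairs with Controls 1 and 2 highest, an order found in 13.6% of all genes tested. It was at 1.85, 1.91, 1.97 and 1.96 FPKM in OGD-R libraries 1 to 4, against 2.24, 2.21, 1.07 and 1.04 FPKM in Controls 1 to 4. The order is the reverse of that of IVL, and the differences are small (log2 fold change 0.18 ± 0.18 SE, limma adjusted p = 0.506). LOR, which encodes loricrin, the most abundant envelope protein of normal epidermis, was at 0.0312, 0.0359, 0.0353 and 0 FPKM in OGD-R libraries 1 to 4 and listed at 0 in every Control. The commonest low value of single-exon genes, scaled to the transcript length of LOR, was between 0.0327 and 0.0483 FPKM. These LOR values thus rest on very few fragments. CST6, which encodes cystatin M/E, overlapped between the groups, between 0.202 and 0.927 FPKM in OGD-R and between 0.0945 and 0.814 FPKM in Control.

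Of the 60 further cornification genes, 34 passed the filter on low values, 6 rose, 1 fell and 27 did not pass the test, beside the same shares of all genes called, 10.2% and 9.69%. LY6G6C, of the same Ly6 family as LYPD3, was at 2.83 ± 0.394 FPKM in OGD-R and 0.939 ± 0.289 FPKM in Control (SD, n = 4 each; log2 fold change 0.99, limma adjusted p = 0.00239). BLMH, bleomycin hydrolase, which completes filaggrin breakdown, was at 9.79 ± 0.618 FPKM in OGD-R and 4.88 ± 2.47 FPKM in Control (SD, n = 4 each; log2 fold change 0.98, limma adjusted p = 0.0442). DUOX1, a hydrogen peroxide producing oxidase of epithelia, was at 24.3 ± 1.24 FPKM in OGD-R and 14.6 ± 0.951 FPKM in Control (SD, n = 4 each; log2 fold change 0.70, limma adjusted p = 0.00116).

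SERPINB7, an epidermal protease inhibitor, CTSD, which encodes cathepsin D, an activator of TGM1, and S100A10, an annexin partner, had log2 fold changes of 0.89, 0.56 and 0.38 (limma adjusted p = 0.0285, 0.0420 and 0.0162). CTSL, which encodes cathepsin L, a protease that cystatin M/E inhibits, was the one decrease, at 24.001 ± 1.26 FPKM in OGD-R and 42.7 ± 6.98 FPKM in Control (SD, n = 4 each; log2 fold change -0.79, limma adjusted p = 0.00414). The other abundant genes of the list, S100A11, ANXA1 and JUP, envelope-associated proteins of membrane and junction, were not called (limma adjusted p = 0.231, 0.433 and 0.663). Without any 1 of the OGD-R libraries, or without Control 3, BLMH, SERPINB7 and CTSD were no longer called, and BLMH and CTSD also without Control 4. S100A10 was not called without OGD-R 2, 3 or 4. Against Controls 1 and 2 alone the log2 fold changes were 0.43 for BLMH, 0.46 for SERPINB7 and 0.29 for CTSD, and against Controls 3 and 4 alone 1.53, 1.32 and 0.83.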

How the data were processed

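Samples were grouped by their titles into 4 OGD-R and 4 Control libraries. Per the labels' protocols, libraries came from total RNA, and both a NEBNext and a SMARTer kit are named. The aligner, the counting tool and the genome build behind the values are not named in the labels. The authors deposited 1 value per gene and library with no unit named. The deposited values were read as FPKM, from their sums and from the commonest low value of single-exon genes. That value was sought within a preset range of FPKM times transcript length. It was worth between 0.0402 (Control 1) and 0.0594 FPKM (Control 4) on 1000 bases and rests on 11 to 18 values a library. Depth is otherwise unknown.

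Testing used limma 3.58.1 in R 4.3.3 on log2(FPKM + 1), for genes that averaged 1 FPKM or more, with an intensity trend, two-sided. P-values were adjusted by Benjamini-Hochberg over all genes tested. The procedure was checked on simulated data in which both groups had the OGD-R spread and no Control pairs. That check cannot speak for error rates under the wider Control spread. Fold changes on this scale understate low genes. The genes, their roles and the lists were chosen with earlier results of these data known. Of the 60 further genes, those named were called with separated groups or among the 4 most abundant; LCE1F, LCE2B and LCE5A were chosen after their values were seen. Coordinates and overlaps are from GENCODE 29 (GRCh38), by Ensembl ID; gene starts and the sequences before them are RefSeq's (GRCh38.p14). Shared sequence was measured as exact 75-base windows of the longest transcript found in transcripts of other genes. Alternatives covered filters, pseudocounts, libraries left out, a replicate block, scalings and variance models. Any 2 libraries had at most 1 identical value above 0. Plots came from Python 3.11.15 with matplotlib 3.10.9.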

Additional observations from a re-analysis of the deposited data

Results flagged for a closer look

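Several genes in the text had a library far from the rest of its group, by the gap to the nearest library as a share of the group's range. For normally spread values chance flags about 1 in 20 groups. That rate does not hold for groups with values at 0 or for the split Controls. ANXA1, the annexin A1 gene, was lowest in OGD-R 3 at 418 FPKM, against 501, 517 and 510.2 FPKM in OGD-R 1, 2 and 4, a gap of 0.844 of the range. CDSN was lowest in Control 1 at 0.260 FPKM, against 0.415, 0.419 and 0.404 FPKM in Controls 2 to 4, a gap of 0.905. LOR was at 0 in OGD-R 4, against 0.0312, 0.0359 and 0.0353 FPKM in OGD-R 1 to 3, a gap of 0.868. All of these LOR values rest on very few fragments. LCE1F and LCE2B were above 0 in OGD-R 3 alone of that group, at 0.157 and 0.0747 FPKM. LCE5A was above 0 in OGD-R 1 alone, at 0.150 FPKM, and PTPRC in OGD-R 4 alone, at 0.0122 FPKM. The gap was 1.0 in each, which a group with a single value above 0 always gives.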

How the results depend on the processing

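Calls and several directions depended on which Controls were kept. The counts of all genes called higher and lower, 1202 and 1138, were 4603 and 3337 without Controls 1 and 2, and 2673 and 3807 without Controls 3 and 4. With each library left out in turn they ranged from 711 to 1426 and from 561 to 1312. Cornified envelope genes called higher, 5 with all libraries, were 17 without Controls 3 and 4, 8 with a filter of 0.1 FPKM, with no filter (HRNR in place of TGM1), and with a filter and pseudocount of 0.1, and 3 to 7 with each library left out. Those called lower, 1 with all libraries, were 14 without Controls 1 and 2, 2 without Controls 3 and 4, 0 under median scaling and under scaling without mitochondrial genes, and 0 to 1 with each library left out. Of the further list, 6 called higher became 13 without Controls 1 and 2, 19 without Controls 3 and 4 and 2 to 6 with each library left out; 1 called lower became 14 and 3. Scaling without mitochondrial genes split the calls of all genes into 1600 higher and 871 lower.

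Signs turned as follows. Without Controls 1 and 2 the log2 fold change was -1.60 for IVL, -1.09 for RPTN, -1.97 for SPRR1A, -0.67 for SPRR1B, -1.48 for SPRR2E, -0.30 for SBSN, -0.945 for CALML5 and -0.25 for JUP. Without Controls 3 and 4 it was -0.14 for FLG, 0.39 for SPRR2A, 1.29 for SPRR2D, 0.64 for SPRR3, 0.20 for ECM1 and 0.11 for PADI1. SPRR3 was at 0.11 with a pseudocount of 0.1, with either filter, and ECM1 at 0.023 under scaling without mitochondrial genes. With single libraries left out, values lay between -0.13 and 1.42 for IVL, -0.10 and 2.05 for SPRR1A, -0.42 and 0.78 for SPRR2E, -0.11 and 0.89 for CALML5 and -0.151 and 0.063 for ECM1. The cause was not tested, beyond the order of the libraries that the text gives.

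Same-numbered OGD-R and Control libraries deviated from their group means with correlations between 0.045 and 0.065. The best-correlated Control was 2, 1, 4 and 4 for OGD-R 1 to 4. The split between the Control pairs enters these deviations, so they cannot tell whether the numbers pair the libraries. With the replicate block, 625 genes were called higher and 507 lower, 3 cornified envelope genes higher and 0 lower, and 2 of the further list higher. With a variance for each group, SCEL and LCE3D were called and LYPD3 and DMKN were not. The count-based alternatives were not run, because the values are not counts.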
